A study of Mus musculus with 6 samples.

Results

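De novo lipogenesis is the making of fatty acids from acetyl-CoA, and 10 genes of this route were described in mouse primary hepatocytes. They were found by gene symbol in the deposited table and form 1 row each among its 25718 genes. RNA of 3 WT and 3 S100a16KO+/- libraries was sequenced, all after alcohol feeding. The labels name the second genotype S100A16 knockdown, and the study's methods describe heterozygous knockout mice made with EIIa-Cre from a floxed allele on a C57BL/6 background, since the homozygous loss was lethal. Per those methods the mice were males of 8 to 10 weeks, kept on control liquid diet for 5 days, then on a diet with 5% ethanol for 10 days, and collected 9 h after an ethanol gavage of 5 g/kg. Both genotypes received ethanol, so no library shows the level without it, and no label says whether a library is a single mouse or a pool, so that p values measure the spread between these libraries.

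In the route, ATP citrate lyase (Acly) makes cytosolic acetyl-CoA from citrate and malic enzyme (Me1) supplies NADPH. The acetyl-CoA carboxylases (Acaca in the cytosol, Acacb at the mitochondrial surface) make malonyl-CoA, and fatty acid synthase (Fasn) joins these units to palmitate. The elongases Elovl6 and Elovl5 lengthen the chains, and the desaturase Scd1 introduces a double bond. Srebf1 encodes the transcription factor SREBP1, a main activator of these genes in the liver on insulin, and Thrsp (Spot 14) is a small cofactor that accompanies lipogenesis.

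The route did not move as a block. Of the 10 genes, 8 differed between genotypes, with 5 lower (Fasn, Thrsp, Srebf1, Acaca and Elovl6) and 3 higher (Me1, Scd1 and Acacb) in S100a16KO+/- hepatocytes, at an adjusted p under 0.05 in edgeR's quasi-likelihood test. Over all 15957 tested genes that call was made for 22.8%, for 11.6% as higher and for 11.2% as lower. All 10 genes had a mean level of at least 3 FPKM, and among the 5285 tested genes above that level the share called was 38.1%. Acly and Elovl5 did not pass. The median log2 fold change of the 10 was -0.19, against 0.01 over all tested genes, and the median size without sign was 0.43 against 0.25. Among the 5285 tested genes with at least 3 FPKM these medians were -0.02 and 0.18. The libraries of the genotypes did not overlap for 8 of the 10 genes, as for 37.9% of the tested genes. With the criterion of the study, an unadjusted p under 0.05 and at least 2-fold, Fasn and Thrsp were the 2 genes that passed, both lower. That criterion was met by 4.52% of the tested genes, and by 1.62% as lower.

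Promoter sequences were compared because genes of this route share regulators. Windows from RefSeq on GRCm38.p6 were used for 9 of the 10 genes, 12 in all, with 3 start sites for Srebf1 and 2 for Me1, and the promoter of Scd1 was not analysed here. The only windows of Acaca and Acacb precede starts inside these genes, at bases 84195438 and 114165518. The genes begin at bases 84129672 and 114146535, and the sequence upstream of those bases was not searched. The 250 bases upstream of a start are shown for Fasn, which fell most, for the Srebf1 starts with a GC box, and for Elovl5, which did not pass. Capitals mark a CCAAT box (CCAAT, bound by NF-Y), a GC box (GGGCGG, bound by Sp1) or an E-box (CACGTG, bound by USF and other factors), each on either strand. Fasn lies on the minus strand at chr11:120824548-120824797, the Srebf1 windows on the minus strand at chr11:60220628-60220877 and chr11:60210472-60210721, and the Elovl5 window on the plus strand at chr9:77917115-77917364.
Fasn: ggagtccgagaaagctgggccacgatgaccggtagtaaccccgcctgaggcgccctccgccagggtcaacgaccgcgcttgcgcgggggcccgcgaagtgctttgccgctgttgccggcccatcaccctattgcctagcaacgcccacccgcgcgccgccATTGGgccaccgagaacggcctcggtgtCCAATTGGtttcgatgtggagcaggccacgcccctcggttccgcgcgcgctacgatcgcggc
Srebf1, start at base 60220627: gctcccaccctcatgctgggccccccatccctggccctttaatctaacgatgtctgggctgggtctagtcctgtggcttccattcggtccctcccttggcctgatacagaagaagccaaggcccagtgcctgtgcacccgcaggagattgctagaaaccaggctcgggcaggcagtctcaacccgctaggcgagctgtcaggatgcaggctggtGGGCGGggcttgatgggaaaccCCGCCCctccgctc
Srebf1, start at base 60210471: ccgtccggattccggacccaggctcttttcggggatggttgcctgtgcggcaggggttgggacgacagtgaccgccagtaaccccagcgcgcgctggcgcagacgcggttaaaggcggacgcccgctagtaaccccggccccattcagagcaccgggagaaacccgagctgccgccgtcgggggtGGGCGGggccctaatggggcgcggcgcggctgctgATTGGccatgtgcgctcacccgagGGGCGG
Elovl5: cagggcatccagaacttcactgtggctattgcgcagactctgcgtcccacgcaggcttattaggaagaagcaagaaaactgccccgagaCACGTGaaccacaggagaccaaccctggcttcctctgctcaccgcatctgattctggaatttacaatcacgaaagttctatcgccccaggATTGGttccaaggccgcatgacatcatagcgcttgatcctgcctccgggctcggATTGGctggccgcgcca

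Of the 12 windows, 7 held a CCAAT box, against 33.8% of all 32851 promoter windows of that length. The Fasn window held 3 of them, 2 of which overlap on opposite strands from -62 to -55 bases relative to the start. A GC box was found in 4 of the 12 windows, against 32.7% of all windows, with 4 copies upstream of Acly. The E-box was found in 1 window, that of Elovl5, against 6.02%. The sterol regulatory element searched here, TCACNCCAC, was in 0 of the 12 windows and in 1.05% of all windows, which says that these letters are not in these windows. These matches are descriptions of sequence, and binding was not measured.

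Srebf1 fell. Its level was 29.7, 33.3 and 31.6 FPKM in the WT libraries and 17.1, 16.6 and 17.6 FPKM in the S100a16KO+/- libraries. The lowest WT library lay well above the highest S100a16KO+/- library. The level dropped to 54.0% of WT (log2 fold change -0.89, standard error 0.05, and in edgeR an adjusted p of 1.45e-08). Srebf1 (ENSMUSG00000020538) lies on chromosome 11 from 60199089 to 60222581. The table sums its 11 listed transcripts, so the SREBP1a and SREBP1c forms cannot be told apart.

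**Figure D1:**
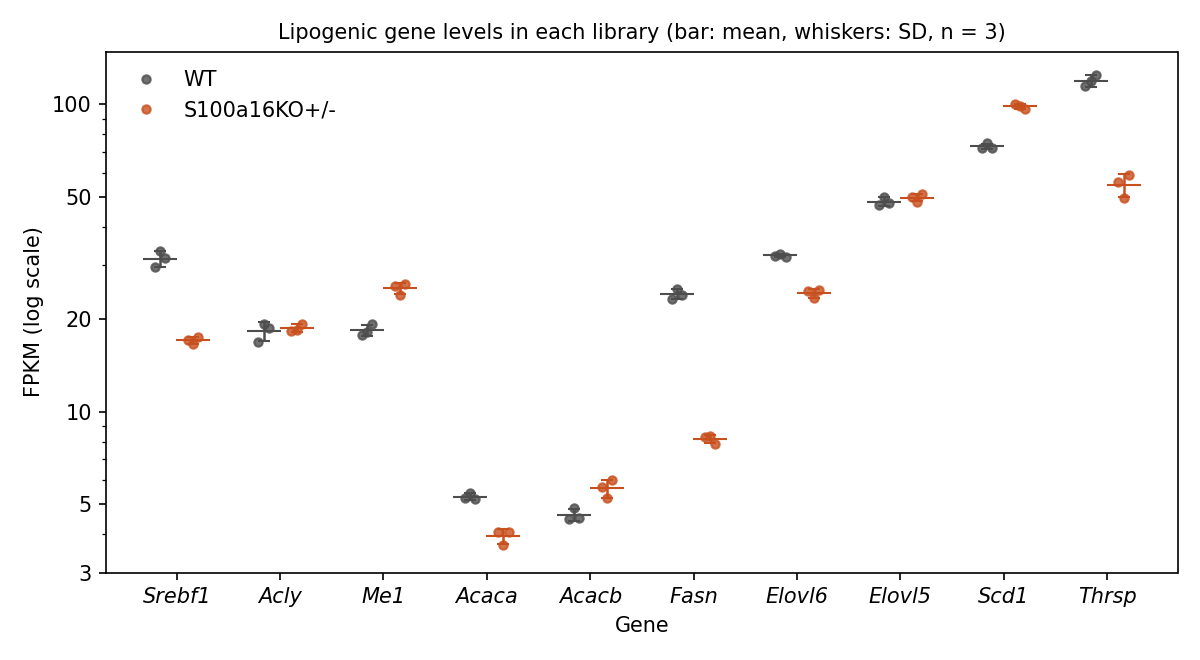
FPKM of each gene on a log axis in the 3 WT and 3 S100a16KO+/- libraries, with points for libraries, bars for the mean and whiskers for the SD. The genotypes separate for all genes shown except Acly and Elovl5, and the distance is largest for Fasn and Thrsp.

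Among the suppliers of the route, the acetyl-CoA gene and the NADPH gene behaved differently. Acly had 16.9, 19.3 and 18.8 FPKM in WT and 18.4, 18.4 and 19.3 FPKM in S100a16KO+/- hepatocytes. These ranges overlap, and the log2 fold change of 0.03 had a 95% interval from -0.09 to 0.14 (adjusted p = 0.791 from edgeR). Me1 had 17.8, 18.2 and 19.3 FPKM in WT and 25.6, 24.0 and 26.0 FPKM in S100a16KO+/- hepatocytes. All 3 S100a16KO+/- libraries were above the WT libraries, 1.36-fold on average (log2 fold change 0.44, standard error 0.05, adjusted p = 3.06e-05 from edgeR). Acly (ENSMUSG00000020917) lies on chromosome 11 from 100476353 to 100528000 and Me1 (ENSMUSG00000032418) on chromosome 9 from 86581371 to 86695953.

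The carboxylases moved in opposite directions. Acaca, whose malonyl-CoA is the building unit of fatty acids, had 5.24, 5.47 and 5.20 FPKM in WT and 4.06, 3.69 and 4.06 FPKM in S100a16KO+/- hepatocytes, a fall to 73.8% of WT (log2 fold change -0.44, standard error 0.05, adjusted p = 3.38e-05 from edgeR). Acacb, whose malonyl-CoA restrains fatty acid entry into mitochondria, had 4.48, 4.88 and 4.53 FPKM in WT and 5.69, 5.24 and 5.99 FPKM in S100a16KO+/- hepatocytes. Its rise was small, 1.21-fold (log2 fold change 0.28, standard error 0.06, adjusted p = 0.00213 from edgeR), and the genotypes did not overlap. By FPKM, Acaca was the higher of the pair in each WT library and the lower in each S100a16KO+/- library. By CPM, which is not scaled for length, Acaca was the higher in every library. Its means were 101.5 against 49.9 CPM for Acacb in WT and 74.9 against 60.5 CPM in S100a16KO+/- hepatocytes. The change of order thus depends on the length scaling, while the fall of the ratio does not. The FPKM ratio of Acaca to Acacb was 1.17, 1.12 and 1.15 in WT and 0.713, 0.705 and 0.677 in S100a16KO+/- hepatocytes. Acaca (ENSMUSG00000020532) lies on chromosome 11 from 84129672 to 84401645 and Acacb (ENSMUSG00000042010) on chromosome 5 from 114146535 to 114250761.

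Fasn showed the largest fall among the 10 genes. Its level was 23.4, 25.2 and 24.0 FPKM in WT and 8.26, 8.34 and 7.88 FPKM in S100a16KO+/- hepatocytes. No S100a16KO+/- library came near a WT library. On the CPM scale it dropped from 296.6 ± 6.08 to 99.8 ± 7.61 (SD, n = 3 each), or to 33.6% of WT. The log2 fold change was -1.57 (standard error 0.06, 95% interval -1.70 to -1.44, adjusted p = 2.12e-10 from edgeR). Among the 9043 tested genes with a mean of at least 1 FPKM, 37 had a lower log2 fold change. Fasn (ENSMUSG00000025153) lies on chromosome 11 from 120805846 to 120824547, where 4 of the 10 genes are found, on the chromosome that holds 1224 of the 15957 tested genes.

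Thrsp was the other gene below the 2-fold line. It had 114.6, 118.9 and 124.7 FPKM in WT and 56.0, 49.5 and 58.8 FPKM in S100a16KO+/- hepatocytes, with a wide gap between genotypes. The level dropped to 45.5% of WT (log2 fold change -1.13, standard error 0.05, adjusted p = 1.64e-09 from edgeR). Its interval, from -1.25 to -1.02, stayed below -1. Mid1ip1, the related protein that binds Thrsp and the carboxylases, had 23.8, 27.7 and 27.1 FPKM in WT and 4.82, 4.14 and 5.34 FPKM in S100a16KO+/- hepatocytes. The fall of Mid1ip1 (log2 fold change -2.46, standard error 0.07, adjusted p = 9.80e-12 from edgeR) was larger than that of any of the 10 genes. Thrsp (ENSMUSG00000035686) lies on chromosome 7 from 97412938 to 97417730.

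The elongases and the desaturase split 3 ways. Elovl6, which extends palmitate to stearate, had 32.3, 32.7 and 31.9 FPKM in WT and 24.8, 23.4 and 24.9 FPKM in S100a16KO+/- hepatocytes, 75.0% of WT (log2 fold change -0.42, standard error 0.05, adjusted p = 3.75e-05 from edgeR). Elovl5, which acts mainly on polyunsaturated chains, had 47.1, 50.1 and 47.9 FPKM in WT and 49.9, 48.3 and 51.2 FPKM in S100a16KO+/- hepatocytes. Its libraries were interleaved, with a log2 fold change of 0.04 and a 95% interval from -0.07 to 0.14 (adjusted p = 0.676 from edgeR). Scd1, which makes oleate from stearate and is a classic SREBP1 target, was higher, opposite to Fasn. It had 72.0, 74.8 and 72.2 FPKM in WT and 100.6, 98.5 and 96.6 FPKM in S100a16KO+/- hepatocytes, 1.34-fold higher (log2 fold change 0.43, standard error 0.05, adjusted p = 3.95e-05 from edgeR). Elovl6 (ENSMUSG00000041220) lies on chromosome 3 from 129532355 to 129634971, Elovl5 (ENSMUSG00000032349) on chromosome 9 from 77917364 to 77984519, and Scd1 (ENSMUSG00000037071) on chromosome 19 from 44394455 to 44407709.

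**Figure D2:**
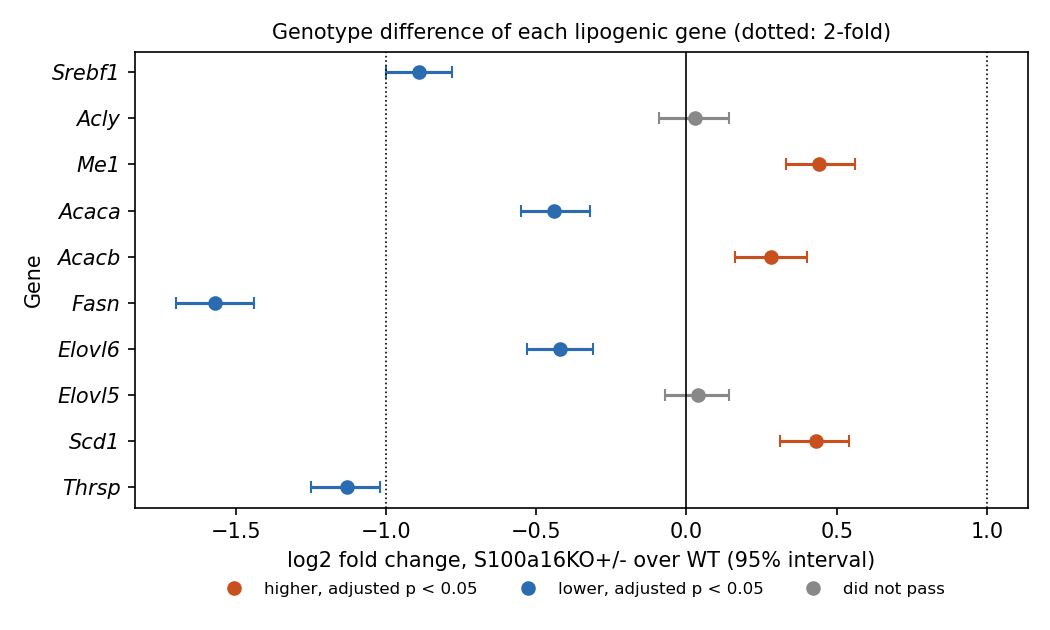
The log2 fold change of S100a16KO+/- over WT for each gene, with its 95% interval and dotted lines at 2-fold in either direction. The intervals of Fasn and Thrsp lie below the lower dotted line, those of Me1, Acacb and Scd1 lie above 0, and those of Acly and Elovl5 span 0.

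The order of levels per length changed with genotype. In WT hepatocytes Thrsp was first at 119.4 ± 5.06 FPKM, followed by Scd1, Elovl5, Elovl6, Srebf1, Fasn, Me1, Acly, Acaca and Acacb. The libraries overlapped between Elovl6 and Srebf1 and between Me1 and Acly, so these neighbours did not differ beyond their spread. In S100a16KO+/- hepatocytes Scd1 was first at 98.6 ± 2.01 FPKM, and Thrsp followed at 54.8 ± 4.79 FPKM, overlapping with Elovl5 (SD, n = 3). Me1 and Elovl6 overlapped next, though within each S100a16KO+/- library Thrsp exceeded Elovl5 and Me1 exceeded Elovl6 by FPKM. Below them came Acly, Srebf1, Fasn, Acacb and Acaca, each apart from its neighbours. Fasn moved from rank 6 to rank 8 and stood at 8.16 ± 0.245 FPKM, under Acly and Me1, both of which it had exceeded in WT. These ranks depend on the length scaling. By CPM, Scd1 was already the highest in WT (400.3 CPM, against 292.8 CPM for Thrsp) and stayed so in S100a16KO+/- hepatocytes (538.1 CPM).

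Ratios between genes of the same library do not depend on library scaling. Scd1 to Fasn was 3.08, 2.97 and 3 in WT and 12.2, 11.8 and 12.3 in S100a16KO+/- hepatocytes, a 4-fold shift. Me1 to Fasn was 0.763, 0.724 and 0.804 in WT and 3.10, 2.88 and 3.30 in S100a16KO+/- hepatocytes. Fasn to Acly went the other way, from 1.39, 1.3 and 1.28 to 0.449, 0.452 and 0.408. Elovl6 to Elovl5 changed least of the 5 ratios compared, from 0.686, 0.653 and 0.667 to 0.497, 0.484 and 0.485. None of the 5 ratios overlapped between genotypes, and each had p = 0.1 in a two-sided exact permutation test (0.1 after adjustment over the 5), the smallest value that 3 libraries against 3 allow, so this test could not pass 0.05. Each pair includes a gene that was called by itself, so the ratios restate those calls and are no separate result.

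**Figure D3:**
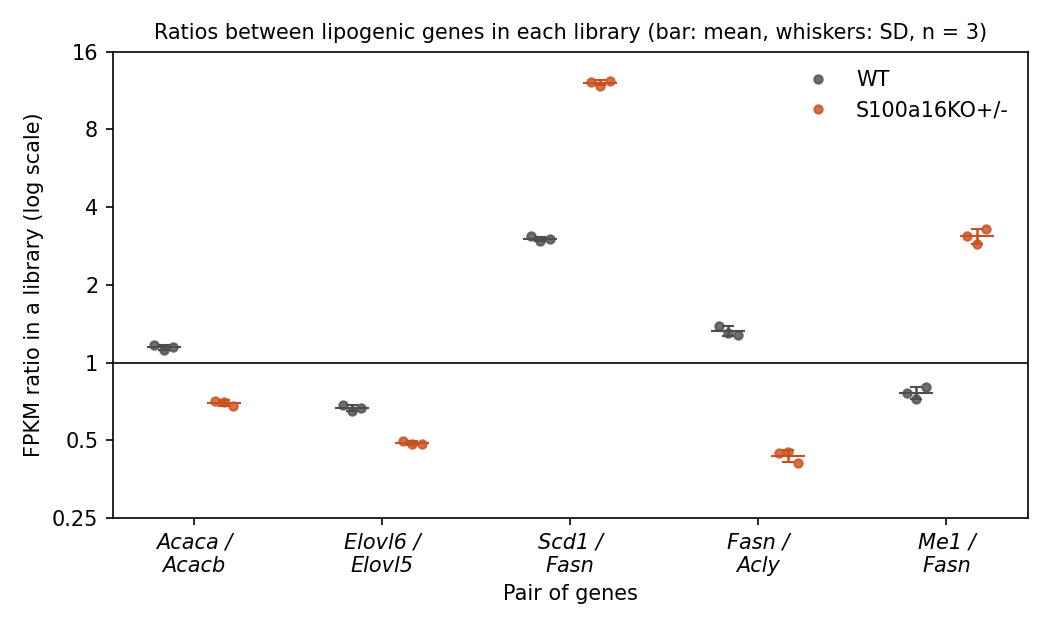
FPKM ratios of 5 gene pairs within each library on a log axis, with points for libraries, bars for the mean and whiskers for the SD. The Scd1 to Fasn ratio sits near 3.02 in WT and near 12.1 in S100a16KO+/- hepatocytes. Acaca to Acacb crosses the line at 1, which holds for FPKM and not for CPM.

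The genes that control SREBP1 were examined next. SCAP escorts the SREBP1 precursor to its cleavage, and INSIG proteins hold this complex in the endoplasmic reticulum. The proteases of Mbtps1 and Mbtps2 cut the precursor. Of 11 tested genes of SREBP processing and control, 5 were higher and 2 lower, with a median log2 fold change of 0.20. For this list and all lists below, the share called to compare with is 22.8% over all tested genes. It is 32.7% among those with a mean of at least 1 FPKM, and no list was tested as a set. Scap rose from 94.6 ± 2.39 to 111.9 ± 2.99 CPM (SD, n = 3 each) and Insig1 from 49.5 ± 2.55 to 68.6 ± 1.48 CPM, with adjusted p of 0.00384 and 3.55e-05 in edgeR. Insig2 did not pass (log2 fold change 0.20, adjusted p = 0.0799 from edgeR). Srebf2, the paralog that drives cholesterol synthesis, was lower by a log2 fold change of -0.25 (edgeR's adjusted p = 0.0124), smaller than that of Srebf1. The largest changes on this list were those of Lpin1 and Sik1, with log2 fold changes of 1.93 and 1.21. Lpin1 encodes a phosphatidate phosphatase that can also act in the nucleus against SREBP activity, and Sik1 a kinase of the AMPK family. Lpin1 had 3.67, 4.21 and 4.41 FPKM in WT and 15.99, 14.8 and 16.3 FPKM in S100a16KO+/- hepatocytes.

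Of 18 transcription factors of lipogenesis, 1 was higher and 6 were lower, with a median log2 fold change of -0.14. Mlxipl, which encodes the sugar-responsive factor ChREBP, had 49.6, 50.1 and 47.9 FPKM in WT and 40.7, 43.2 and 47.2 FPKM in S100a16KO+/- hepatocytes. The libraries did not overlap, but the change did not pass (log2 fold change -0.18, adjusted p = 0.0505 from edgeR). Nr1h3, which encodes the oxysterol receptor LXRα, stood at a log2 fold change of -0.11 (edgeR's adjusted p = 0.242), and Ppargc1b, a coactivator of SREBP1, at -0.01 (edgeR's adjusted p = 0.982). Pparg, Cebpa and Nfyb, the 3 with the largest called changes at a mean of at least 1 FPKM, had log2 fold changes of -0.81, -0.70 and -0.34. Nfyb encodes a subunit of NF-Y, and the genes of the other subunits did not pass, with log2 fold changes of 0.15 for Nfya and -0.05 for Nfyc (edgeR's adjusted p of 0.552 and 0.775). Named after its values were seen, Sp1 was lower (log2 fold change -0.28, adjusted p = 0.00964 from edgeR). Usf1 and Usf2, also named afterwards, did not pass, at 0.06 and 0.09 (edgeR's adjusted p of 0.757 and 0.495).

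Insulin raises Srebf1 expression and AMPK restrains the carboxylases. Of 22 genes of these pathways, 3 were higher and 5 lower, with a median of -0.04. Irs2, an insulin receptor substrate, rose from 29.4 ± 2.12 to 120.2 ± 2.10 CPM (SD, n = 3 each). This is a difference of 2.03 on the log2 scale, at an adjusted p of 1.66e-11 in edgeR. Trib3, which encodes an inhibitor of AKT, had a log2 fold change of -1.62, and Pik3r1 of -0.64. Of 14 tested genes listed as other SREBP1 and ChREBP targets, 3 were higher and 8 lower, with a median of -0.41. The largest falls on this list were those of Angptl8 (log2 fold change -4), Fgf21 (-3.80) and Ppp1r3b (-3.19). Named after its values were seen, Gpam, the first enzyme of glycerolipid synthesis, had 15.2, 18.5 and 17.7 FPKM in WT and 7.97, 6.70 and 7.67 FPKM in S100a16KO+/- hepatocytes, a log2 fold change of -1.21. Pklr and Txnip, also named afterwards and listed as ChREBP targets, were higher, with log2 fold changes of 0.19 and 0.88. The median of this list was -0.52 without WT replicate 1, -0.56 without S100a16KO+/- replicate 2 and -0.68 without both.

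The other lists covered the supply, elongation and cofactors of the route, and cholesterol synthesis. Among 13 tested genes of carbon and NADPH supply, 2 were higher and 3 lower (median log2 fold change -0.02). Idh1 and Idh2, the NADP-dependent isocitrate dehydrogenases, and Cs, citrate synthase, had log2 fold changes of -0.43, -0.42 and -0.33. Among 14 tested genes of elongation and desaturation, 3 were higher and 2 lower (median 0.04), and Hsd17b12, Hacd3 and Hacd2, which act in each elongation cycle, had -0.32, -0.23 and 0.19. Among 13 genes of lipogenic cofactors and malonyl-CoA control, 2 were higher and 5 lower (median -0.09), with 0.60 for both acyl-CoA synthetases Acsl4 and Acsl3 beside the fall of Mid1ip1. Of 20 SREBP2 targets of cholesterol synthesis, 4 were higher and 5 lower, with a median of 0.04. On that list Mvd and Fdps, enzymes of the mevalonate route, had log2 fold changes of 1.29 and 1.

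**Figure D4:**
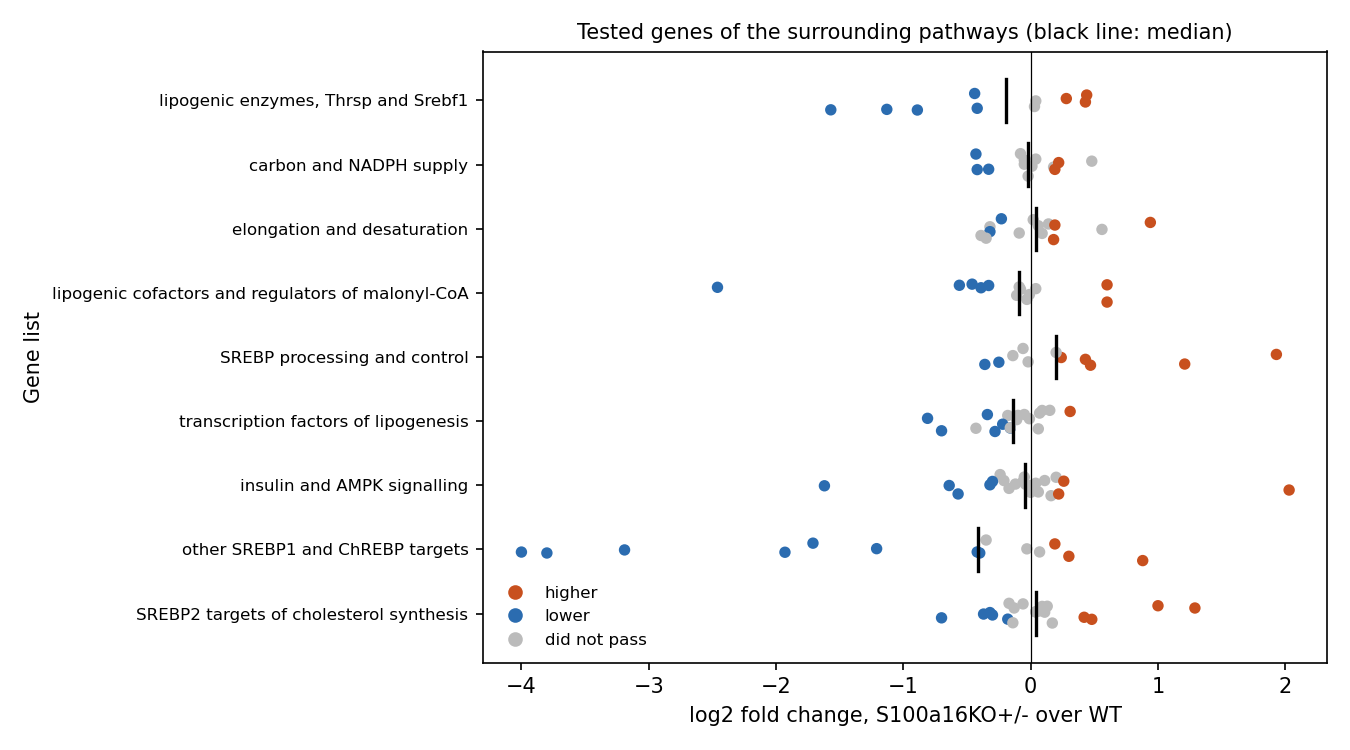
The log2 fold change of S100a16KO+/- over WT for each tested gene, with a row for the 10 lipogenic genes and for each surrounding list, coloured by whether the gene passed the test, and a black line at the list median. Medians lie between -0.41 and 0.20, and the list of other SREBP1 and ChREBP targets has 3 genes below -3, Angptl8, Fgf21 and Ppp1r3b.

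Library totals ran from 67658095 to 71807834 estimated counts, and 1 sequenced fragment was worth about 4 counts, since 936 genes of WT replicate 1 had a count of 4 against 561 at 3 and 259 at 5. The lowest count of any of the 10 genes in a library was 3290, for Acacb in WT replicate 3. S100a16 itself fell to 38.0% of WT (log2 fold change -1.40, adjusted p = 4.14e-07 from edgeR). WT replicate 1 and S100a16KO+/- replicate 2 had mitochondrial shares of 21.1% and 20.1%, against 17.0% to 18.6% in the others, and without both of them the same 8 genes passed in the same directions. The 10 hepatocyte markers summed to between 128900 and 144100 CPM, with 2 higher and 2 lower. Markers of some other cells moved with genotype, while the sums overlapped between genotypes for Kupffer cell and macrophage markers and for cholangiocyte markers. Of 10 sinusoidal endothelial markers 9 were higher and 1 lower, summing to between 313.4 and 326.5 CPM in WT and between 461.4 and 483.6 CPM in S100a16KO+/- libraries. Of 10 stellate cell markers 5 were higher (60.8 to 66.0 against 100.9 to 113.7 CPM), and of 10 Kupffer cell and macrophage markers 3 were higher (145.6 to 175.3 against 172.2 to 188.4 CPM). Of 10 erythroid and blood markers 5 were lower, summing to between 225.3 and 259.5 CPM in WT and between 34.4 and 36.4 CPM in S100a16KO+/- libraries. Of the 5 cholangiocyte markers tested 1 was lower (4.76 to 6.96 against 5.21 to 5.79 CPM). Adipocytes also make fatty acids, and of the 3 adipocyte markers tested, Pnpla2, which hepatocytes express too, was higher, with list sums of 63.4 to 68.1 against 88.1 to 104.0 CPM. Of the 10 adipocyte markers listed, 7 had values, and Lep, Cidea and Retn were not analysed here. No marker with values was at 0 in every library, and Adipoq had 0 counts in each library but S100a16KO+/- replicate 1, with 6. The part of these other cells in the lipogenic results was not tested, and in bulk RNA fewer cells of a type and less RNA per cell cannot be told apart.

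Some reads could belong to other genes. Acaca shares 31.7% of its 31-base words with the processed pseudogene Gm5182, which had 565 to 903 counts and a log2 fold change of -0.42 (adjusted p = 0.0130 from edgeR). Me1 shares 28.6% with Gm7049, which had at most 21 counts. Scd1 shares 5.84% with its paralog Scd3, which was not analysed here. For Acly, Acacb, Fasn and Elovl5 no word was shared. The genes that overlap Srebf1, Acaca and Elovl6 had mean levels of at most 11.1, 4.84 and 4.32 CPM, against 107.5 CPM for Srebf1, 74.9 CPM for Acaca and 174.5 CPM for Elovl6 in S100a16KO+/- hepatocytes, where each was lower, and Rai1, on the strand opposite to Srebf1, is the highest of them.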

How the data were processed

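Per the labels, poly(A) RNA of primary hepatocytes was made into strand-specific libraries with molecular identifiers. The authors deposited 1 table with an estimated count, not scaled for library size, and an FPKM value, scaled for transcript length and library size, for each gene and library. The submitters' processing notes name cutadapt 1.9, HISAT2 2.0.4, UMI-tools, StringTie 1.3.4d and mm10, with no roles, and whether counting used strand is not given in the sources used here.

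Groups follow the titles. Estimated counts, already whole numbers, were compared with edgeR 4.0.16 in R 4.3.3 (filterByExpr, TMM scaling, robust quasi-likelihood fit, two-sided, no covariate), with Benjamini-Hochberg adjustment over all 15957 tested genes. edgeR replaced the DESeq2 of the study, which was run as an alternative (1.42.0), as was limma 3.58.1. CPM are TMM-scaled. FPKM served for levels between genes and for ratios (scipy 1.17.1). All 10 genes were named, and from each pathway list the 3 called genes with the largest change at a mean of at least 1 FPKM, with Mlxipl, Srebf2, Scap, Insig1, Insig2, Nr1h3, Ppargc1b, Mid1ip1 and S100a16. Some genes that this rule names are not reported here. Genes, lists and motifs were chosen with earlier results of these data known. Promoters were read from RefSeq, and overlaps and shared words from GENCODE M21, both on GRCm38. Precision is limited by 3 libraries per genotype.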

Additional observations from a re-analysis of the deposited data

How the results depend on the processing

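The 8 lipogenic genes called and the 2 past the criterion of the study stayed 8 and 2 under all alternatives run, among them other scalings and filters, DESeq2, limma, counts divided by 4, and each library left out (8 to 8 and 2 to 2). The log2 fold change of Fasn ranged from -1.63 to -1.46, of Thrsp from -1.16 to -1.10, of Srebf1 from -0.92 to -0.84, of Scd1 from 0.39 to 0.47 and of Acacb from 0.24 to 0.31, whose largest adjusted p was 0.0397. Acly lay between -0.00498 and 0.0496 with each library left out. It changed sign without S100a16KO+/- replicate 2 (-0.00498) and without this library and WT replicate 1 (-0.0306, chosen after seeing the data), and passed in neither. The ratios between genes kept their direction, with Scd1 to Fasn between 1.99 and 2.02 on the log2 scale.

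Over all genes, 3643 were called, and 2188 and 2167 with limma on log2(FPKM + 1) and log2(FPKM + 0.1), and 2229 at an adjusted p under 0.01. The criterion of the study was met by 721 genes, and by 382 with at least 1 CPM in 3 libraries, 137 with log2(FPKM + 1) and 251 with log2(FPKM + 0.1). Leaving out each library gave 2734 to 3302 called genes and 759 to 823 past the criterion. Same-numbered libraries did not deviate together (correlations of -0.0472, -0.0237 and 0.0519). These values cannot show how the mice were handled, and no label says whether the numbers pair libraries. With the replicate number as a block (replicate block), 3082 genes and the same number of lipogenic genes, 8, were called.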

Other observations

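Over the 6 libraries, genes other than the 10 described were ranked by how their log2(CPM + 1) ran. Those most like Srebf1 were Inhbe, Nr1h4, Cebpa, G0s2 and Bcor, with Pearson r from 0.9986 to 0.9992. Those most like Fasn were Retsat, Prodh, Ido2, Ppp2r5a and Clock, with r from 0.9993 to 0.9998. The points share library and genotype, and 139 of 9033 genes for Srebf1 and 131 for Fasn had r over 0.99, so these names describe the ranking alone. Their log2 fold changes differed widely, from -3.84 for Inhbe to -0.62 for Nr1h4 in the first group, and from -1 for Retsat to -0.33 for Prodh in the second.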
